A study of Mus musculus with 2 samples.

Results

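The 10 genes described here are the liver X receptor (LXR) genes Nr1h3 and Nr1h2 and 8 genes under their control or in the same sterol and lipid export route: Abca1, Abcg1, Apoe, Apoc2, Lpl, Mylip, Lpcat3 and Plin2. They were taken by gene symbol from the GENCODE M21 annotation and matched by identifier to every table, and are 10 of 55536 annotated genes. The samples were bone marrow-derived macrophages, a primary culture from mouse marrow (strain C57BL/6J), at 0 minutes of a time course with 100 ng/ml lipid A, an agonist of Toll-like receptor 4. RNA of the chromatin fraction, which holds transcripts still attached to their template, was depleted of ribosomal RNA and sequenced in 2 libraries of 1 group. Replicate 1 was made from 250 ng of RNA and replicate 2 from 500 ng. The labels call them biological replicates and name the same donor entry for both, so the spread between them may be smaller than that between animals. There was no second condition, and no p-value is given.

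LXRs are nuclear receptors that bind oxysterols, the oxidised forms of cholesterol, and sit on DNA as a pair with a retinoid X receptor (RXR). Without ligand they recruit corepressors. With ligand they switch on genes that move cholesterol out of the cell. In macrophages, which take up cholesterol from dying cells and lipoproteins, this route limits the build-up of stored sterol and the formation of foam cells.

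The gene tables held 10970767 expected counts in replicate 1 and 14207280 in replicate 2. An expected count is an estimated number of reads, and TPM divides it by the effective length of the transcripts and scales each table to the same sum, so levels are compared between genes in TPM. A second transcript table, made from the same reads by another route, held 19200416 and 24693077 counts. Macrophage markers were present: all 8, among them Csf1r (185 and 161 TPM) and Lyz2 (191 and 161 TPM), reached 1 TPM in both libraries. None of 36 markers of 7 other cell types did, adipocytes and hepatocytes included, although 8 did in the second transcript table. All 6 adipocyte markers, among them Adipoq and Lep, had no read in the gene table, as had Alb and Apoa1 of the hepatocyte list. Unless stated otherwise, values are from the gene table, and coordinates are on mm10.

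Of the 10 genes, 9 reached 1 TPM in both libraries, against 46.7% of protein-coding genes. The median level of all 10 genes, Apoc2 included, was 59.0 ± 8.30 TPM (SD, n = 2), and the 9 detected genes all lay above 11.1 TPM, the median of the 10292 protein-coding genes that reached 1 TPM in both. Apoc2 was at 0 and 0.200 TPM. The most abundant was Plin2, which ranked at place 100 of 22028 protein-coding genes by mean TPM. Fewer cells of a type and less RNA per cell cannot be told apart in such bulk samples.

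**Figure D1:**
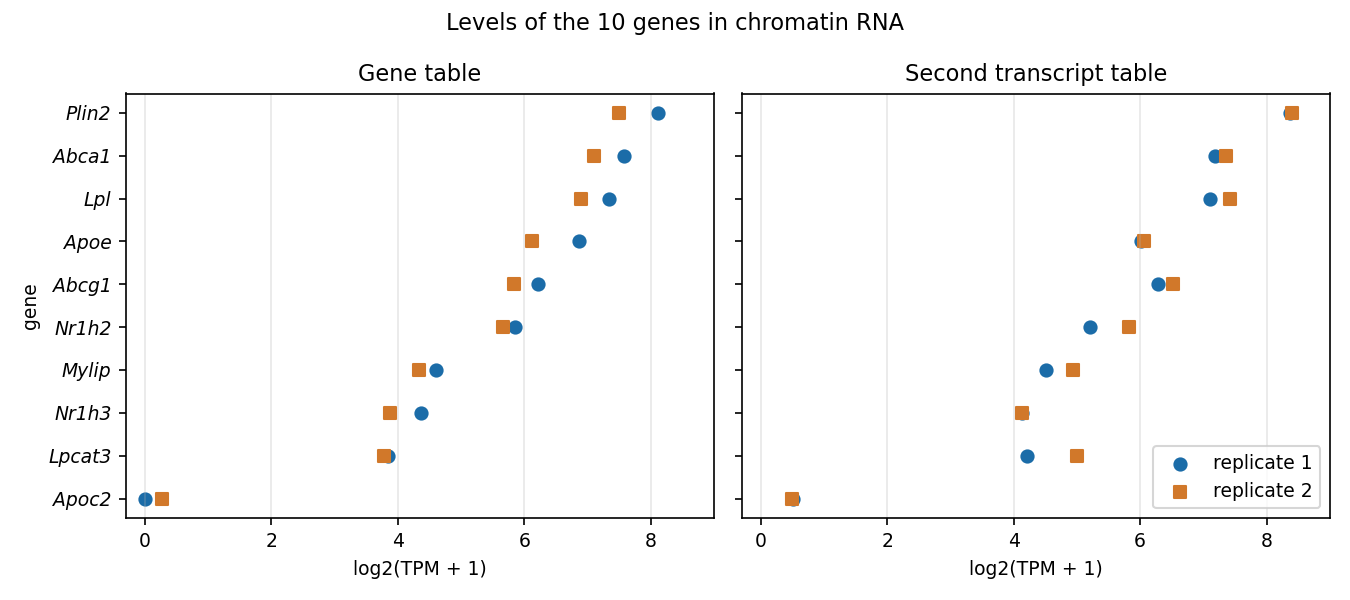
Level of each of the 10 genes as log2(TPM + 1) on the horizontal axis, in the gene table (left) and the second transcript table (right), with 1 point per replicate and genes ordered by their mean in the gene table. Plin2, Abca1 and Lpl lie at the top in both tables and Apoc2 near 0. Replicate 2 lies below replicate 1 for 9 genes on the left and above it for 9 on the right.

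Both receptor genes were transcribed, and the beta receptor was the more abundant. Nr1h2, which encodes LXR beta and is expressed in most tissues (chromosome 7, 44549616 to 44553951), stood at 56.5 TPM in replicate 1 and 49.9 TPM in replicate 2, on 550 and 693 counts. Nr1h3, which encodes LXR alpha, the receptor enriched in liver, fat and macrophages (chromosome 2, 91184061 to 91202834), stood at 19.6 and 13.6 TPM, on 287 and 310 counts. The libraries of these genes did not overlap, and Nr1h2 was 2.88-fold higher in replicate 1 and 3.66-fold in replicate 2. In the second transcript table Nr1h2 (36.2 and 55.9 TPM) was again above Nr1h3 (16.5 and 16.6 TPM) in both libraries, by 2.19-fold and 3.38-fold. The receptors are related in sequence, but no run of 31 bases of a Nr1h2 transcript occurs in any other gene's transcripts. For Nr1h3, 5 of 2646 such runs do, in Gm13783, a non-coding gene that overlaps it and held 3 and 5 counts.

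Much of the signal of both receptors was assigned to transcript models that keep an intron. In the first transcript table, which belongs to the same route as the gene table, retained-intron models held 59.1% and 56.9% of the TPM of Nr1h3 and 39.9% and 46.6% of that of Nr1h2. The leading model of Nr1h3 was Nr1h3-208 (35.5 ± 0.900% of its TPM), which keeps introns 5 and 6 of the coding transcript Nr1h3-204. Nr1h3-205 keeps intron 6, and a few bases of intron 2, and Nr1h3-206 keeps intron 5. Of Nr1h2, Nr1h2-205 held 21.2 ± 0.641% and keeps intron 4 of the coding transcript Nr1h2-201, and Nr1h2-208 held 11.8 ± 0.302% and keeps intron 6 and a part of intron 7. A short model annotated as coding, Nr1h2-212, held the largest single share (30.6 ± 1.91%).

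The ends of these 4 introns are shown because they are the places where a read separates the spliced from the unspliced RNA of the receptors. Each is read from a GENCODE M21 retained-intron transcript, 5′ to 3′ on the strand of the gene. Each start window holds 10 exon bases and 20 intron bases, and each end window 30 intron bases and 10 exon bases, all exon bases being coding. Capitals mark the first and the last 2 bases of the intron.
Nr1h3 intron 5 start: gcgcgtcacgGTacttgacccggggagagg
Nr1h3 intron 5 end: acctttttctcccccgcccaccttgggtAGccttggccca
Nr1h3 intron 6 start: tgcaatcgagGTggctggaaagggagtggg
Nr1h3 intron 6 end: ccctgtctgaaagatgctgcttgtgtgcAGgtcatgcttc
Nr1h2 intron 4 start: tacatcgtggGTgagatggggagacaggaa
Nr1h2 intron 4 end: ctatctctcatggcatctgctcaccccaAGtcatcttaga
Nr1h2 intron 6 start: caaagtcacgGTatcgccctgcccggccct
Nr1h2 intron 6 end: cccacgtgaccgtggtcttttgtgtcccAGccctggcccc

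All 4 introns begin with GT and end with AG, the usual ends of an intron, and are short. Nr1h3 introns 5 and 6 span 97 bases (chr2:91190642-91190738) and 177 bases (chr2:91190285-91190461), and Nr1h2 introns 4 and 6 span 261 bases (chr7:44552246-44552506) and 102 bases (chr7:44551498-44551599), all on the minus strand. The exon bases beside Nr1h3 intron 5 and Nr1h2 intron 6 matched at 14 of 20 positions. That was the best match of Nr1h3 intron 5 among the 9 introns of Nr1h2, the next reaching 8 of 20. Nr1h3-208 keeps the former intron and Nr1h2-208 the latter. Such a match was not particular to introns that are kept. Nr1h3 intron 4 and Nr1h2 intron 5, which no retained-intron model holds, matched at 16 of 20 positions. Nr1h3 introns 6 and 7 matched Nr1h2 introns 7 and 8, in that order, at 13 of 20 each.

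The partners of LXR were present apart from one RXR. Rxrb stood at 28.5 and 23.7 TPM and Rxra at 12.9 and 9.51 TPM, while Rxrg had no read in the gene table. All 13 coregulator genes reached 1 TPM in both libraries (median 26.4 TPM). The highest were Ncor1, the corepressor (155 and 164 TPM), and Ep300, an acetyltransferase coactivator (88.3 and 81.5 TPM). The lowest were Med1, the Mediator subunit that contacts nuclear receptors (21.8 and 17.3 TPM), and Tbl1x, a subunit of the corepressor complex (10.4 and 8.71 TPM). Ncor1 was thus above both receptors in both libraries.

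Abca1 and Abcg1 were the highest of 13 listed ABCA and ABCG transporter genes, a list that does not hold every member of these families. Abca1 encodes the transporter that loads cholesterol and phospholipid onto lipid-poor apolipoprotein A-I (chromosome 4, 53030787 to 53159895). It stood at 189.8 TPM in replicate 1 and 136 TPM in replicate 2, on 19007 and 20319 counts, and took 61.4% of the counts of the 10 genes on average. Abcg1 encodes the transporter that passes cholesterol to mature high-density lipoprotein (chromosome 17, 31057675 to 31117988) and stood at 73.2 and 56.3 TPM, on 1655 and 1997 counts. The ranges of Abca1 and Abcg1 did not overlap, and Abca1 was 2.59-fold and 2.41-fold higher in replicates 1 and 2. In the second transcript table the ratios were 1.88-fold and 1.79-fold. Of the 13 listed genes 8 reached 1 TPM in both libraries. After Abca1 and Abcg1 came Abca3 (30.2 and 24.6 TPM) and Abcg3 (10.1 and 11.5 TPM). Abca13 had 2 and 3 counts and Abcg5, which exports sterols in liver and gut, none.

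Nearly all of the Abca1 signal lay on its full-length coding model, while the division of Abcg1 depended on the unit. Abca1-201, of 10262 bases, held 96.2 ± 0.0787% of the TPM, and the annotation has no retained-intron model for this gene. Abcg1 divided its TPM between Abcg1-205, a coding model of 1372 bases (36.7 ± 0.354%), the retained-intron model Abcg1-202 (36.2 ± 1.25%) and the full-length Abcg1-201 (27.1 ± 1.61%). Abcg1-202 has 456 of its 1085 bases outside the exons of Abcg1-201, in intron 5. In expected counts the full-length Abcg1-201 held 66.5% and 69.0% and Abcg1-202 held 14.4% and 13.0%. In the second transcript table Abcg1-201 held 16.7 ± 1.36% of the TPM. There Abca1-201 held 85.4 ± 1.01%, and the short model Abca1-202 the rest.

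The promoter of Abca1 is a textbook site of LXR action, where LXR and RXR bind a direct repeat close to the start of transcription. Its 150 bases before the start are shown with the stretch nearest to that repeat in capitals, beside those of Nr1h2, in which capitals mark matches to CCGGAAGT, the letters bound by ETS factors. Both are from RefSeq on GRCm38.p6, 5′ to 3′ on the minus strand, at chr4:53159896-53160045 and chr7:44553966-44554115.
Abca1: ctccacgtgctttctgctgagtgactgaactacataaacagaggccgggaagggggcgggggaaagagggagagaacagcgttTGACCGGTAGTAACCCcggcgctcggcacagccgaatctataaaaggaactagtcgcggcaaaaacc
Nr1h2: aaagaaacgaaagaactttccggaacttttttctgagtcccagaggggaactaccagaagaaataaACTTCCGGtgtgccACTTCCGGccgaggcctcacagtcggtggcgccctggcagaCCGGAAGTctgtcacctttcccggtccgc

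The repeat was searched as a pair of AGGTCA copies with NNNN between them, on both strands, in windows from 250 bases before to 50 after the start, with up to 3 mismatches. This matched 21.9% of all 32851 windows. RefSeq gave 11 windows for 8 of the 10 genes, with Abcg1 and Lpl unmatched. Among them only the window of Abca1 held a match, at positions -67 to -52 and with 3 mismatches. Abca1 and Mylip held TATAAA between positions -32 and -24, and 1 of the 3 windows of Apoe held it at positions -100 to -91, in overlapping matches on both strands, against 13.6% of all windows. The window of Nr1h2 held 5 matches to CCGGAAGT, 3 of them before the start and 2 overlapping ones after it, and 3.89% of all windows held any. No other window of the 8 genes held one.

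Apoe was abundant and its neighbours in the apolipoprotein cluster were at or near 0. Apoe encodes apolipoprotein E, which carries cholesterol out of macrophages (chromosome 7, 19696109 to 19699188), and stood at 115 TPM in replicate 1 and 68.4 TPM in replicate 2, on 921 and 819 counts. Apoc2 encodes the cofactor that activates lipoprotein lipase and lies 18168 bases from Apoe on the same strand (chromosome 7, 19671579 to 19677941). It had 0 counts in replicate 1 and 1 in replicate 2. A count of 0 allows up to 3 counts by counting error alone, or 0.274 RPM (counts scaled to a library of 1e+06) and 0.719 TPM for a gene of this effective length in replicate 1. In the second transcript table Apoc2 had 3.74 and 4 counts (0.422 and 0.409 TPM), and it shares 78.8% of its 31-base runs with Gm44805, an overlapping gene with no read in the gene table.

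Between Apoc2 and Apoe, Apoc1 had no read in either library and Apoc4 had 3 and 1 counts. On the other side Tomm40, a mitochondrial import gene on the same strand whose 3′ end lies 2125 bases from Apoe, stood at 28.9 and 20.15 TPM. The routes differed for Apoc4: the second transcript table gave it 345 and 435 counts (7.74 and 10.1 TPM), so its level is uncertain. Apoe stood at 64.0 and 66.0 TPM in the second transcript table, below the gene table in both replicates. Within Apoe, the coding model Apoe-209 held 46.5 ± 2.45% of the TPM in the first transcript table. The processed transcript Apoe-202 held 19.6 ± 3.32% and the retained-intron model Apoe-211 15.3 ± 2.73%. In the second transcript table these models held 32.5 ± 1.77%, 5.50 ± 3.80% and 11.4 ± 1.41%, in that order. Apoe-211 keeps intron 3 (375 bases, chr7:19697104-19697478), whose ends are shown with 10 exon bases and capitals as for the receptors.
Apoe intron 3 start: aagaactgacGTgagtgtccagctctttca
Apoe intron 3 end: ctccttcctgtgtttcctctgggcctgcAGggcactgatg

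Lpl encodes lipoprotein lipase, which releases fatty acids from lipoprotein triglyceride (chromosome 8, 68880491 to 68907448). It stood at 161 and 118 TPM, on 4765 and 5368 counts, and at 137 and 171 TPM in the second transcript table. Its cofactor gene Apoc2 was thus the lowest of the 10 genes while Lpl was among the 3 highest. The coding model Lpl-201 held 31.7 ± 1.94% of the TPM, and 2 retained-intron models, Lpl-205 and Lpl-202, held 23.9 ± 1.10% and 19.0 ± 0.153%. Lpl-205 has 3668 of its 3954 bases outside the exons of Lpl-201, in intron 1, and Lpl-202 has 2078 of 2423, in intron 2. A model annotated for nonsense-mediated decay, Lpl-203, held 22.8% in replicate 1 and 16.2% in replicate 2. Lpl-201 held less, 21.02% and 21.01% of the TPM, in the second transcript table. Of 8 genes that act with the enzyme, 5 reached 1 TPM in both libraries. The highest were Sel1l (65.0 and 66.55 TPM) and Lmf1 (11.4 and 9.95 TPM), which help lipase folding and exit from the endoplasmic reticulum. Gpihbp1, the endothelial anchor of the enzyme, Apoc3 and Apoa5 had no read.

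The remaining 3 genes act on sterol uptake, membrane lipids and lipid storage. Mylip encodes a ubiquitin ligase that marks lipoprotein receptors for degradation (chromosome 13, 45389742 to 45412022). It stood at 23.2 and 19.2 TPM, on 678 and 828 counts, with 98.4 ± 2.33% of the TPM on Mylip-201. In the second transcript table Mylip-201 held 70.7 ± 3.71% and Mylip-202 29.3 ± 3.71%. Both are coding models, and the annotation has no other model for Mylip. Of the target genes of Mylip, Lrp8 stood at 1.81 and 2.14 TPM and Vldlr at 0.0200 TPM in both libraries. Mylip lay above Lrp8 and Vldlr in each library.

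Lpcat3 encodes the acyltransferase that puts polyunsaturated chains into membrane phospholipids (chromosome 6, 124663027 to 124704418). It was the lowest of the 9 detected genes at 13.4 and 12.7 TPM, on 107 and 156 counts. Retained-intron models, most of them short, held 83.4% and 78.15% of its TPM, and the coding model Lpcat3-201 held 19.2 ± 3.72%. The balance was different in expected counts, which are not divided by length: retained-intron models held 56.2% and 44.1%, and Lpcat3-201 held 43.8% and 55.9%. It overlaps Emg1 on the other strand (319.8 and 489.6 counts), and 304 of its 3339 31-base runs are shared with it. No source used here says whether the libraries kept strand, and without it reads in that overlap cannot be told apart. The second transcript table placed Lpcat3 at 17.5 and 30.98 TPM, above the gene table in both libraries. Of 7 genes of the lysophospholipid acyltransferase family, 4 reached 1 TPM in both libraries, with Lpcat1 (17.1 and 19.5 TPM) and Lpcat2 (11.8 and 14.6 TPM) beside Lpcat3. Mboat1 was at 1.12 and 0.440 TPM, and Mboat2 had no read.

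Plin2 encodes perilipin 2, which coats lipid droplets (chromosome 4, 86648386 to 86670060). It was the highest of the 10 genes at 276 and 180.2 TPM, on 2799 and 2813 counts, and stood at 331 and 338 TPM in the second transcript table. Plin3, the next of the 5 perilipin genes, was at 8.39 and 7.56 TPM, Plin4 at 1.42 and 1.91 TPM, Plin5 at 0.550 and 0.670 TPM, and Plin1, the perilipin of fat cells, had no read. Plin2 has no retained-intron model in the annotation. It does have processed transcripts that hold intron sequence, Plin2-202 (35.2 ± 1.25% of the TPM) with 702 of 996 bases outside the exons of Plin2-201, and Plin2-203 (13.1 ± 0.124%) with 433 of 817. The coding model Plin2-201 held 35.4 ± 1.83% of the TPM and 57.4% and 59.9% of the expected counts. In the second transcript table it held 14.1 ± 0.296% of the TPM, below the short coding models Plin2-206 (22.6 ± 0.416%) and Plin2-207 (21.4 ± 0.157%) and below Plin2-202 (18.7 ± 1.74%). Of its 31-base runs, 157 of 3506 are shared with Gm12551.

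**Figure D2:**
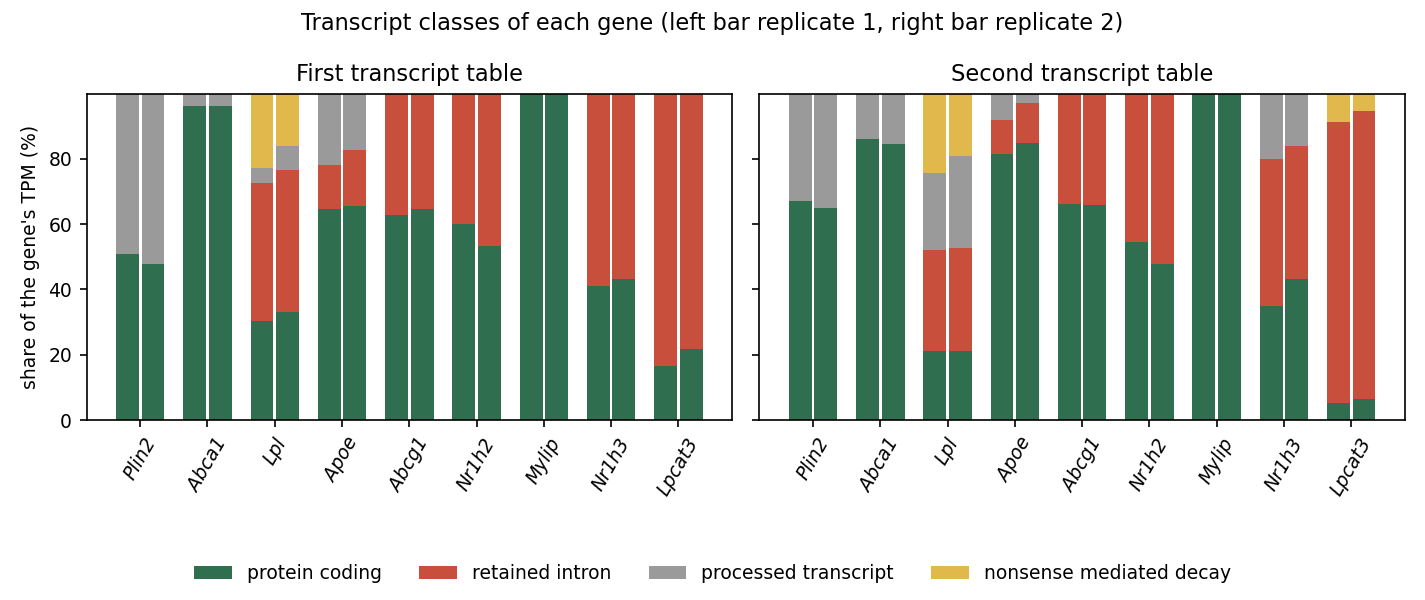
Share of each gene's TPM (vertical axis, percent) on protein-coding, retained-intron, processed and nonsense-mediated decay models in the first (left) and second (right) transcript tables, with replicate 1 as the left and replicate 2 as the right bar of each gene. Lpcat3 has the largest retained-intron share (83.4% and 78.15% in the first table). Abca1 is mostly on coding models, and Mylip wholly, as the annotation has only coding models for it. Apoc2 is left out.

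Over the 6 genes with a retained-intron model and a level above 1 TPM, the median share of TPM on such models was 43.1 ± 2.83% (SD of the medians of the replicates). Over 5042 nuclear protein-coding genes with such a model and at least 100 counts in each library the median was 49.0%. The share was 50% or more in 2 of the 6, Nr1h3 and Lpcat3, against 48.1% of those genes, which is near that background. The share also depends on which models the annotation holds. The second transcript table gave a median of 38.3% and, for Nr1h3, 42.7 ± 2.86%, below 50%. As a share of expected counts, Nr1h2 was above 50% (57.5 ± 4.83%) and Lpcat3 near it (50.2 ± 8.58%).

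By mean TPM the order was Plin2, Abca1, Lpl, Apoe, Abcg1, Nr1h2, Mylip, Nr1h3, Lpcat3 and Apoc2. Neighbours were taken as apart only where both libraries of a gene lay above both of the next. That held for 4 of 9 pairs of neighbours: Lpl over Apoe, Nr1h2 over Mylip, Nr1h3 over Lpcat3 and Lpcat3 over Apoc2. Across libraries the levels of Plin2, Abca1 and Lpl overlapped in turn, as did those of Apoe, Abcg1 and Nr1h2, and those of Mylip and Nr1h3. Within each library, however, all 10 genes stood in the order given above. The second transcript table separated 7 of 9 pairs and kept Plin2 first and Apoc2 last, but it put Lpcat3 above Nr1h3 and Abcg1 above Apoe. In that table Abca1 and Lpl changed order between the libraries, as did Mylip and Lpcat3. Of the 10 genes, 4 kept their place by mean TPM between the tables.

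The 10 genes were mostly lower in replicate 2. On counts scaled by TMM (trimmed mean of M values, which sets most genes equal), 8 of the 9 genes whose counts averaged 50 or more had a log2 ratio of replicate 2 over replicate 1 below 0, against 45.6% of 9109 nuclear protein-coding genes. Apoe had the largest difference at -0.67 (interval for counting error alone -0.81 to -0.53), followed by Plin2 at -0.49, Abca1 at -0.41, Nr1h3 at -0.39 and Lpl at -0.33. Abcg1 (-0.23), Mylip (-0.21) and Nr1h2 (-0.17) were closer to 0, and Lpcat3 was at 0.04. The median was -0.33, where the coding genes had a median of 0.02 and a middle 50% from -0.11 to 0.16. No gene of the 9 reached a 2-fold ratio, against 0.373% of 10984 genes at that count.

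The same 8 of 9 were below 0 under each of 6 ways of scaling and counting. Scaling by total counts moved the median of the coding genes from 0.02 to 0.15 and the share of them below 0 from 45.6% to 22.8%, and the 9 genes then ran from -0.54 to 0.17. Among other genes, 7 of 8 macrophage markers were below 0, with a median of -0.14, and so were Rxra (-0.28) and Rxrb (-0.18). Lrp1, a receptor for lipoproteins and apolipoprotein E, had -0.50. The coregulators had a median of -0.03, with 7 of 13 below 0. RNA input and depth also differed between the libraries (250 against 500 ng, and 10970767 against 14207280 counts), and with 1 library of each kind these and the replicate cannot be told apart.

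**Figure D3:**
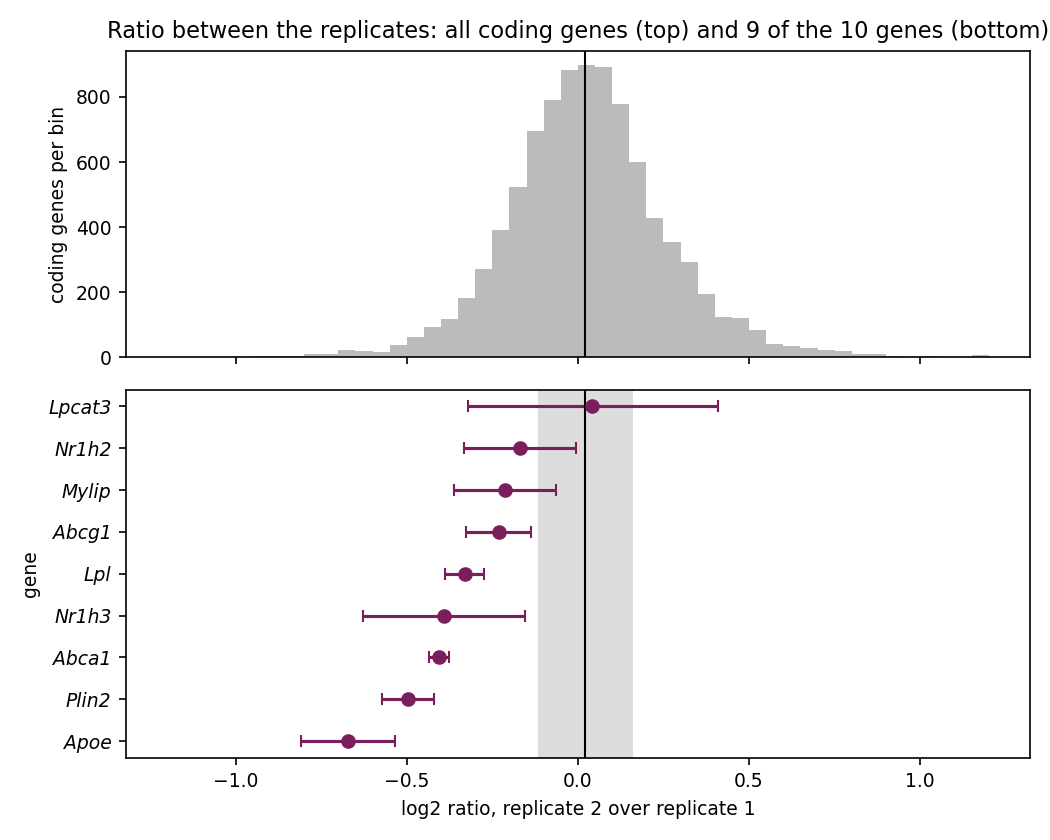
Log2 ratio of replicate 2 over replicate 1 on TMM-scaled counts (horizontal axis). The top panel counts nuclear protein-coding genes per bin, with values beyond 1.2 in either direction in the end bins, and the bottom panel shows 9 genes with exact 95% intervals for counting error, the median of the coding genes as a line and their middle 50% as a grey band. The points of 8 genes lie left of the band, Apoe (-0.67) the farthest, and that of Lpcat3 (0.04) lies within it.

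The direction between replicates in TPM differed between the tables. Of the 10 genes, 9 had a lower TPM in replicate 2 by the gene table and 9 a higher one by the second transcript table, Nr1h3 by the smallest margin (16.5 and 16.6 TPM). The TPM of detected protein-coding genes differed between replicates in the same way, with a median ratio of replicate 2 over replicate 1 of 0.954 in the gene table and 1.49 in the second. In counts both routes gave ratios of the same sign for each of the 9 genes, from -0.52 for Apoe to 0.19 for Lpcat3 in the second table.

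Other LXR target genes were divided between abundant and absent. Of 15, 10 reached 1 TPM in both libraries, with a median of 11.5 TPM over all 15. The highest were Mertk, a receptor for dying cells (135 and 115 TPM), and Pltp, the phospholipid transfer protein (132 and 112 TPM). Srebf1, the regulator of fatty acid synthesis that LXR switches on, stood at 34.1 and 32.8 TPM, and Scd1, a desaturase gene, at 0.15 and 0.11 TPM. Srebf1 and Scd1 were named after their values were seen. Abcg5 and Apoc1 had no read. These lists were chosen with earlier results of these data known and give no independent support.

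Of 8 genes that make or remove oxysterols, only Cyp27a1 reached 1 TPM in both libraries. Cyp27a1 encodes sterol 27-hydroxylase, which makes an LXR ligand, and stood at 142 and 140.3 TPM. Sult2b1, which sulfates oxysterols, was next at 2.35 and 0.430 TPM, on 12 and 7 counts. Ch25h, cholesterol 25-hydroxylase, had 1 and 0 counts and was chosen after its values were seen. Cyp11a1, Cyp7b1 and Cyp7a1 had no read. Of the 8, 4 reached 1 TPM in both libraries by the second transcript table.

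Of 11 genes of sterol uptake, storage and release 10 reached 1 TPM in both libraries, with a median of 48.96 TPM. The highest were Lrp1 (369 and 263 TPM) and Soat1, which esterifies cholesterol for storage (149.7 and 163 TPM). Soat1 lay above the export gene Abcg1 in both libraries and its range overlapped that of Abca1. Lrp8 and Vldlr, given above, were the lowest.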

How the data were processed

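Chromatin RNA of 2 libraries was analysed. Notes deposited beside the tables trace the first transcript table and the gene table to a transcriptome alignment (GENCODE M21, mm10). The second transcript table is traced to an index and reads. Column layouts are those of RSEM and kallisto, and no source used here names a tool, a version or the strand. The authors deposited expected counts, which are estimated numbers of reads, and TPM values, which correct them for effective length. Counts were rounded for scaling and for the ratios and their intervals. The deposited posterior SD of the count was 0 for 8 of the 10 genes. Entries outside the 55536 annotated genes (0.338% and 0.270% of counts) were left out. A count of 0 allows 0.274 and 0.212 RPM.

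Scaling used TMM in edgeR 4.0.16 with its filter on low counts, and DESeq2 1.42.0 size factors as an alternative, in R 4.3.3. Ratios are on scaled counts plus 0.5. No test was run, since 1 group was sequenced. Intervals are exact binomial at 95% and cover counting error only. A gene was called detected at 1 TPM in both libraries. The steps were tested on simulated counts. The 10 genes and all lists were chosen with earlier results of these data known. Named were all 10 genes, their transcript models with 10% or more of the TPM where the text turns on them, and from each list the 2 highest and 2 lowest other genes by mean TPM. Alternatives were the second transcript table, posterior mean TPM, other scalings, thresholds and prior counts, and leaving out each replicate. The values of 1 gene of the lists are not reported here.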

Additional observations from a re-analysis of the deposited data

How the results depend on the processing

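The count of 9 of 10 genes at 1 TPM or more was 9 under every alternative tried, at 0.5 and 5 TPM, with the second transcript table, with posterior mean TPM, with rescaling and without either replicate. The median level of 59.0 TPM was 231.7 when TPM was rescaled to its full sum over nuclear protein-coding genes, which by construction enlarges every value. It ran from 53.1 to 64.8 TPM with each replicate left out. The median retained-intron share of 43.1% was 38.3% in the second transcript table and 47.6% as a share of expected counts, and ran from 41.1% to 45.1% with each replicate left out. The cause of the difference between the tables was not tested. The number of neighbouring genes that were apart was 4 of 9 in the gene table and 7 of 9 in the second transcript table. This rule compares genes across libraries. Within each library the gene table kept the same order of genes, and the second transcript table did not. The median log2 ratio between replicates of -0.33 ran from -0.33 to -0.20 over the 5 alternatives. Of single-gene values, 18 levels, 7 ratios and 11 retained-intron shares moved by more than their spread or interval, and 32, 38 and 13 did not. These numbers do not measure stability. Leaving out 1 of 2 replicates always shifts a mean by less than its SD, so those levels and shares could not move. Rescaling moved every level by construction. Under the other alternatives every retained-intron share moved, except that of Apoe by expected counts (13.0% against 15.3%). No paired analysis was possible because both libraries belong to 1 group. Depth limits Apoc2, on 0 and 1 counts, most.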
